A study of Mus musculus with 6 samples.

Results

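Imprinted genes are expressed mainly from the copy inherited from 1 parent, and many of them set fetal growth. The set described here holds 10 of the 34718 genes in the count table, found by their gene names: H19, Igf2, Igf2r, Meg3, Dlk1, Kcnq1ot1, Cdkn1c, Peg3, Grb10 and Plagl1. RNA was sequenced from Hepa1-6, a mouse hepatoma cell line grown in culture, in 3 libraries titled shNC, taken here as the short hairpin control, and 3 titled shZfp207, taken as knockdown of the zinc finger protein Zfp207. The labels tag the samples as tumor, name no further genotype, treatment or time, and do not give how many hairpins were used. Off-target effects of the hairpin and the loss of Zfp207 therefore cannot be told apart. Whether replicates were separate cultures is not given either, and p-values then measure only the spread between these libraries, which may be technical.

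Imprints are DNA methylation marks laid down differently in egg and sperm at control regions, which then steer whole domains of neighbouring genes. In the Igf2-H19 domain CTCF binds an insulator on the maternal copy, which makes H19, a long noncoding RNA. The paternal copy, without bound CTCF there, makes Igf2, a growth factor. Kcnq1ot1, Airn and Meg3 are long noncoding RNAs of other domains, the first 2 of which silence neighbours on the copy that makes them. In liver, Igf2 and H19 are high before birth and low in the adult mouse, and both can return in liver tumours.

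Gene counts per library ran from 11933736 in control replicate 1 to 16248346 in control replicate 3. Zfp207 itself stood at 141.4, 198 and 216.8 CPM (counts per 1000000 counts of the library) across the controls and at 46.8 to 48.1 CPM across the knockdown libraries. Control replicate 1 stood apart from every other library: 10.5% of its counts came from mitochondrially encoded genes, against 2.89% and 2.67% in the other controls and 5.61% to 6% in the knockdown. Nuclear long RNAs were also highest there, so results below are given with and without that library. Of the hepatocyte markers, 5 of 11 reached 10 CPM in every library and 4 (Ttr, Serpina1a, Fga and Ahsg) stayed below 1 CPM in all. The summed hepatocyte markers were 1735 to 2851 CPM in control and 4909 to 5230 CPM in knockdown libraries, a sum made up mostly of Alb and Afp, and its part in the results was not tested. Of the 7 tested, edgeR called Alb, Afp, Apoa1 and Fgb higher. Apoa2 lay lower, at 1.19 ± 0.328 and 0.246 ± 0.1 CPM, and entered the test only through its control level. Hnf4a, a transcription factor of hepatocytes, had 362.9 ± 23.7 and 366.8 ± 11.4 CPM (edgeR adjusted p = 0.927). Of 16 markers of other cell types, 11 stayed below 1 CPM in every library, among them Ptprc and Col1a1, while the matrix proteoglycan gene Dcn had at least 2019 CPM and Krt5 at least 10 CPM throughout. The other 14 summed to 1.99 to 5.03 CPM in control and 6.63 to 7.74 CPM in knockdown libraries, where the macrophage receptor Csf1r rose from 0.479 ± 0.351 to 3.24 ± 0.155 CPM (edgeR adjusted p = 0.0117). The macrophage marker Lyz2 did not follow, at 1.34 ± 0.617 and 1.05 ± 0.255 CPM (edgeR adjusted p = 0.609), and Adgre1 had counts in 1 library only. The leukocyte marker Ptprc, with too few counts to test, had 1, 1 and 0 counts in the controls and 8, 5 and 5 in the knockdown. Cd79a had 6, 2 and 0 against 0, 2 and 2 counts, and Cd3e and Cd8a had none. The part of such cells in the results was not tested.

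Of the 10 genes, 4 had enough counts to be tested (Igf2, Igf2r, Kcnq1ot1 and Grb10), H19 and Meg3 had a few counts, and Dlk1, Cdkn1c, Peg3 and Plagl1 had none. With all 6 libraries edgeR's quasi-likelihood test called Igf2 lower and Grb10 higher, at an adjusted p below 0.05. Over all 11975 genes tested, 20.6% were called, 9.92% higher and 10.7% lower. The groups did not overlap for 3 of the 4 tested genes, against 44.7% of all genes tested. Without control replicate 1 all 4 passed, 3 higher and 1 lower, where 52.1% of all genes did, and the groups then overlapped for none of the 4, against 70.3% of all genes without overlap. Grb10 entered the test only through its level in the knockdown libraries, and control replicate 1 is set apart partly because Kcnq1ot1 is high in it, so these counts over tested genes support nothing by themselves.

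The start regions of the 4 tested genes are shown because these are the genes whose levels are described below. Each runs from 250 bases before to 50 bases after an annotated start, 5′ to 3′ on the gene's strand, from RefSeq on GRCm38.p6. RefSeq entries were matched for 8 of the 10 genes. Capitals mark the TATA box core TATAAA, the CCAAT box CCAAT, the GC box GGGCGG and the E-box CACGTG on either strand, and motifs of different kinds do not overlap in these windows.
Igf2, the last of 4 annotated starts, minus strand, chr7:142657447-142657746: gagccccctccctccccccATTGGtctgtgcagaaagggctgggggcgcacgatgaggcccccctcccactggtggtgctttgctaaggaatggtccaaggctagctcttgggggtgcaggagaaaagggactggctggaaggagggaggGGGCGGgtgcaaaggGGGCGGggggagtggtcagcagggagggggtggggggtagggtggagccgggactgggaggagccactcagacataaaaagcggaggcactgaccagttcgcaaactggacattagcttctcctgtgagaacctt
Igf2r, minus strand, chr17:12769657-12769956: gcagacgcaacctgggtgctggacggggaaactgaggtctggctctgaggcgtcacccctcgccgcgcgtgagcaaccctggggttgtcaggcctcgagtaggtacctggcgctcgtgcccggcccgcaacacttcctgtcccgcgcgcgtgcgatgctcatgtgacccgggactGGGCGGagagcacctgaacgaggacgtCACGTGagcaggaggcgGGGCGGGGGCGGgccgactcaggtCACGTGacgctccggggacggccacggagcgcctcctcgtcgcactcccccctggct
Kcnq1ot1, minus strand, chr7:143296498-143296797: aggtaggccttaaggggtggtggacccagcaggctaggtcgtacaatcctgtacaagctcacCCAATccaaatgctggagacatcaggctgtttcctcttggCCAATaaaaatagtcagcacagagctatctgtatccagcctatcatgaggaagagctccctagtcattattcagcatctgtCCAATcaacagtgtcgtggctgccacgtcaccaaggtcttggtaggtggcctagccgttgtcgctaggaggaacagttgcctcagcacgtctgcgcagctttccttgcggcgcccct
Grb10, the first of 2 annotated starts, minus strand, chr11:12037371-12037670: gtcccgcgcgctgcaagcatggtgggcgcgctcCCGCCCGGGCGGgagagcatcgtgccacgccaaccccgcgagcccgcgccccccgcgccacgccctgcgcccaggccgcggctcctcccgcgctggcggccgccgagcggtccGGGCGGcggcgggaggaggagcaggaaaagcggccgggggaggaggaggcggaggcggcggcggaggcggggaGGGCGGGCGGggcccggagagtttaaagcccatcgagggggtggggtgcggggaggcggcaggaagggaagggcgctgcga
The Igf2 window holds 1 CCAAT box and 2 GC boxes, the Igf2r window 3 GC boxes and 2 E-boxes, the Kcnq1ot1 window 3 CCAAT boxes and the Grb10 window 5 GC boxes, of which a pair overlap each other. Across 32851 such windows 13.6% hold TATAAA, 37.4% CCAAT, 35.7% GGGCGG and 7.15% CACGTG. The dinucleotide CG, the site of DNA methylation, occurs 45 times in the Grb10 window and 34 times in that of Igf2r, more than in 98.1% and 92.3% of all windows. It occurs 7 times in the Igf2 window and 9 times in that of Kcnq1ot1, where the median of all windows is 7. The starts not shown differ widely: the first 3 of Igf2 hold 2, 14 and 24 CG and the second of Grb10 holds 9. Counts per gene do not tell which of several starts was used.

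**Figure D1:**
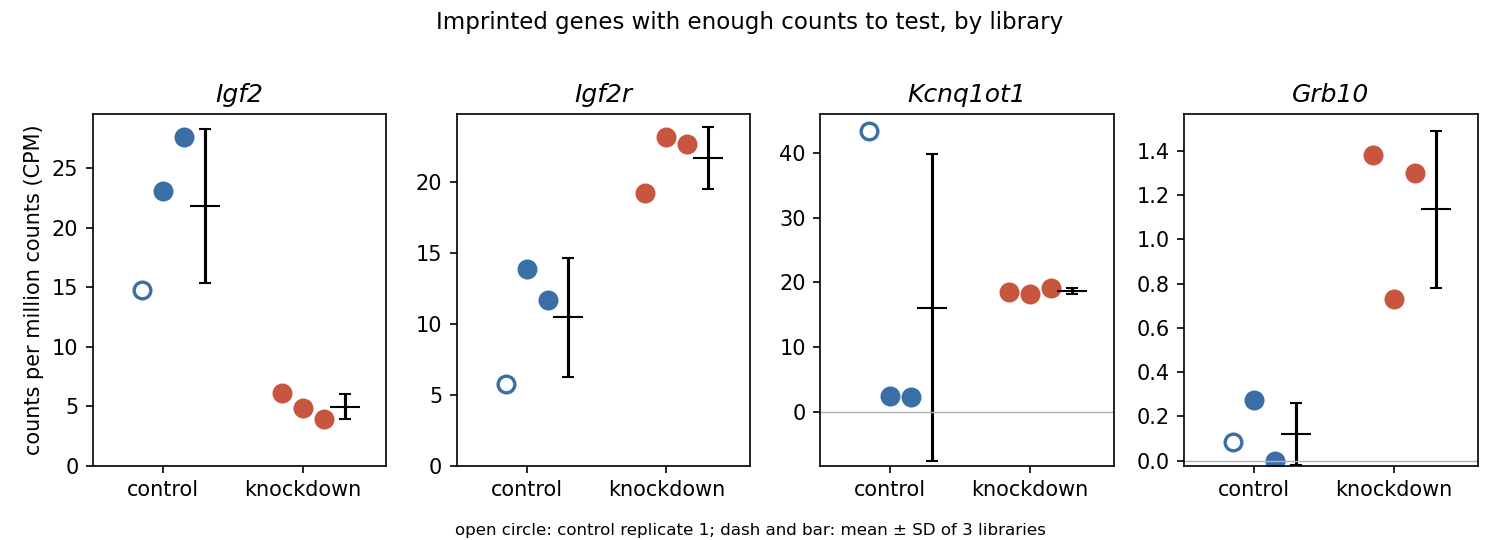
CPM of the 4 tested genes in each library (points), with the mean and SD over 3 libraries per group (bars). Igf2 is lower and Igf2r and Grb10 are higher in all 3 knockdown libraries than in all 3 controls, while for Kcnq1ot1 control replicate 1 (43.4 CPM) lies above the knockdown and the other controls (2.54 and 2.4 CPM) below it.

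Igf2 encodes insulin-like growth factor 2, the main fetal growth ligand of the family. Control replicates 1 to 3 held Igf2 at 14.8, 23.1 and 27.6 CPM, and knockdown replicates 1 to 3 at 6.1, 4.84 and 3.96 CPM. Every knockdown library was below every control library, with control replicate 1 the lowest control. Scaled by TMM, the control mean was 21.8 ± 6.56 CPM and the knockdown mean 4.99 ± 1.05 CPM (SD, n = 3 each), a ratio of 0.229. Igf2 fell by 2.13 on the log2 scale with an SE of 0.278 and an edgeR adjusted p of 0.00567. The value was -2.34 without control replicate 1, with an SE of 0.17 and an edgeR adjusted p of 6.96e-05. With each library left out in turn it ran from -2.34 to -1.92 and passed in 6 of 6 fits, with an adjusted p of at most 0.0432. In bulk RNA, fewer cells making Igf2 and less Igf2 RNA per cell cannot be told apart. The gene (ENSMUSG00000048583) spans 142650766 to 142666816 of chromosome 7 (mm10, minus strand), and 62.8% of its exonic sequence is shared on the same strand with the annotated gene Gm49394, which was not analysed here.

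Igf2r encodes the cation-independent mannose 6-phosphate receptor, which binds IGF2 and carries it to lysosomes for breakdown. Control replicates 1 to 3 gave 5.78, 13.9 and 11.7 CPM, and knockdown replicates 1 to 3 gave 19.2, 23.2 and 22.7 CPM. All knockdown libraries were above all controls, and control replicate 1 was lowest of all. The means were 10.4 ± 4.25 and 21.8 ± 2.27 CPM (SD, n = 3 each). The log2 fold change of 1.05 (SE 0.305) missed the threshold with an edgeR adjusted p of 0.0525. With control replicate 1 left out the fold change was smaller, 0.77 (SE 0.131), and passed with an edgeR adjusted p of 0.00265. It also passed without control replicate 2, at 1.31 with an edgeR adjusted p of 0.049, and with DESeq2 on all libraries, at 0.00813, but in none of the other 4 fits with a library left out, where the adjusted p reached 0.162. The gene (ENSMUSG00000023830) lies on the minus strand of chromosome 17 from 12682406 to 12769664, and no exon of another gene overlaps its exons.

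The median level of long genes was low in control replicate 1, and Igf2r has 9.31 kb of exonic sequence. Genes were split into 3 equal classes by exonic length. Against control replicates 2 and 3, the longest (5.83 to 123 kb) had a median log2 difference of -0.19 in control replicate 1. The middle class (3.26 to 5.83 kb) had 0.02 and the shortest (0.151 to 3.26 kb) 0.21. The knockdown libraries gave 0.03, -0.02 and -0.01 in the same comparison. Igf2r was at -1.09 in control replicate 1 on that scale. Igf2, of the middle class with 5.72 kb, was at -0.77, and Kcnq1ot1, with 93.1 kb, at 3.87. The part of transcript length in these levels was not tested.

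The ligand and its scavenger receptor lay in opposite directions from the controls, and their ratio within a library needs no scaling between libraries. There were 2.57, 1.66 and 2.36 Igf2 counts per Igf2r count in control replicates 1 to 3 and 0.317, 0.209 and 0.175 in the knockdown. The lowest control ratio exceeded the highest knockdown ratio several-fold, and control replicate 1 did not stand apart here. The geometric mean ratio was 9.54-fold higher in control than in knockdown cells, and 8.75-fold higher without control replicate 1. A two-sided exact permutation test gave p = 0.1, the smallest that 3 against 3 allow. Each gene alone already separated the groups, in opposite directions, so this p was fixed in advance and supports nothing further. Per kb of exonic sequence, Igf2 stood at 4.17, 2.7 and 3.84 times the Igf2r level in the controls and at 0.516, 0.34 and 0.284 times in the knockdown, so the order of the pair was inverted in all 3 knockdown libraries. The size of these multiples depends on the lengths used, 5.72 kb for Igf2 and 9.31 kb for Igf2r. The deposited FPKM values imply 13.2 and 9.77 kb. How reads in the Igf2 sequence shared with Gm49394 were counted is not known.

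Grb10 encodes an adaptor protein that binds insulin and IGF receptors and restrains their signal, and in mice its loss gives overgrowth. It was close to the detection limit: 1, 4 and 0 counts in control replicates 1 to 3 and 21, 11 and 19 counts in the knockdown replicates. Every knockdown library was above every control. The 51 against 5 counts give a ratio of 9.71 after scaling by depth, with a 95% exact interval of 3.9 to 31.2 that covers counting error only. The log2 fold change was 3.19, with an SE of 0.759 and an edgeR adjusted p of 0.0302, on means of 0.119 ± 0.141 and 1.14 ± 0.352 CPM (SD, n = 3 each). Since the filter admitted Grb10 only for its knockdown level, that p is not independent of the difference. With no filter beyond 1 count the edgeR adjusted p was 0.046. The call was kept without control replicate 1 or 2 and lost without control replicate 3 (edgeR adjusted p = 0.0609) and without knockdown replicates 1, 2 or 3 (edgeR adjusted p = 0.113, 0.0775 and 0.115). The gene (ENSMUSG00000020176) lies on the minus strand of chromosome 11 from 11930508 to 12038683.

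Kcnq1ot1 is a long RNA read from the strand opposite to Kcnq1 on the paternal copy, and it silences neighbours such as Cdkn1c there. Control replicates 1 to 3 stood at 43.4, 2.54 and 2.4 CPM, and the knockdown replicates at 18.6, 18.2 and 19.1 CPM. The knockdown libraries lie close together, between control replicate 1 and the other controls, so the groups overlap. With all libraries its log2 fold change came to 0.25, with an SE of 1.03 and an edgeR adjusted p of 0.885, on means of 15.9 ± 23.3 and 18.7 ± 0.52 CPM (SD, n = 3 each). Leaving out control replicate 1 gave 2.92 (SE 0.12), 7.57-fold higher in the knockdown, given as a description with no test because that library is set apart partly for its Kcnq1ot1 level. Without control replicate 2 or 3 it turned to -0.26 and -0.27, so its direction depended on which control was left out. The gene (ENSMUSG00000101609) spans 143212155 to 143296549 on the minus strand of chromosome 7.

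Of the other nuclear long RNAs tested, Malat1, Neat1, Xist, Firre and Tug1 had the same order of libraries, and Airn, described below, did not. Malat1 reached 330.8, 30.8 and 30 CPM across the controls and 104.3, 123.5 and 129.5 CPM across the knockdown libraries. Xist, the RNA that silences an X chromosome, reached 507.8, 81.6 and 72.3 CPM across the controls and 327.4, 351.4 and 341.4 CPM in the knockdown. Neat1, the scaffold of nuclear paraspeckles, was at 160.6, 6.17 and 9.48 CPM in the controls and at 21.2, 17.8 and 19.1 CPM in the knockdown, and Firre at 36.2, 4.25 and 6.28 against 14.6, 15.5 and 15.5 CPM. These 4 were highest in control replicate 1, lowest in the other controls and intermediate in the knockdown. Of the 7 tested nuclear long RNAs, Kcnq1ot1 among them, edgeR called 0 with all libraries, against 20.6% of all genes. There were also 0 at an unadjusted p below 0.05 and 0 with DESeq2, which gave 3 of them no adjusted p. Without control replicate 1 edgeR called 6 higher, where 52.1% of all genes were called. That library is set apart because such RNAs are high in it, so the 6 calls support nothing by themselves. Measured against 100 counts of Malat1, Neat1, Xist and Firre together, Kcnq1ot1 stood at 4.19, 2.06 and 2.03 in the controls and at 3.97, 3.58 and 3.79 in the knockdown. The knockdown exceeded control replicates 2 and 3 by 1.84-fold on that scale. Against single references the excess was 1.94-fold for Malat1, 2.99-fold for Neat1, 1.71-fold for Xist and 2.56-fold for Firre, and against mitochondrially encoded counts 3.58-fold. Control replicate 1 was left out of these folds. Per 100 Malat1 or Neat1 counts it had 13.1 and 27 Kcnq1ot1 counts, below the knockdown (14.7 to 17.8 and 87.6 to 102). Per 100 Firre counts its 120 lay within the knockdown range of 117 to 127. Per 100 Xist counts its 8.55 lay above the knockdown (5.17 to 5.67), and against mitochondrially encoded counts it was also above. With all libraries the folds were 1.65, 3.17, 1.23, 1.89 and 2.14, respectively. The mitochondrially encoded share of counts followed the same order of libraries as Malat1. The part of nuclear RNA content or RNA quality in the Kcnq1ot1 levels was not tested.

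**Figure D2:**
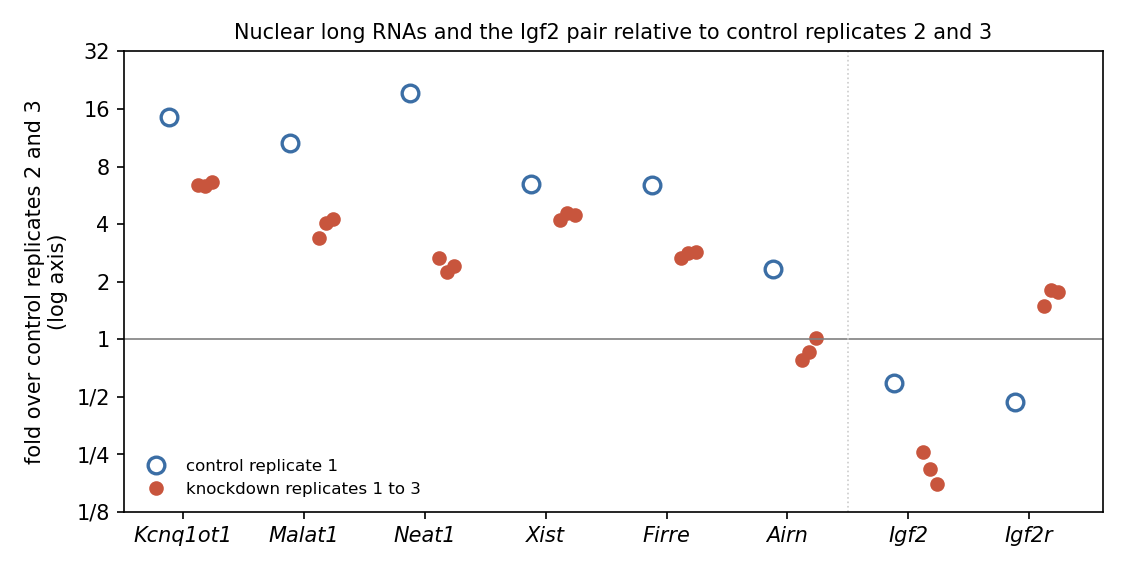
Fold over the mean of control replicates 2 and 3, on a log axis after adding 0.5 CPM, for Kcnq1ot1, other nuclear long RNAs, Igf2 and Igf2r in control replicate 1 and in each knockdown library. Kcnq1ot1 stands at 14.6-fold in control replicate 1 and at 6.34 to 6.68-fold in the knockdown, and Malat1, Neat1, Xist and Firre are likewise highest in control replicate 1.

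H19, the noncoding partner of Igf2, had 4, 0 and 2 counts in control replicates 1 to 3 and 0 in each knockdown library. Its 6 control counts amount to 0.14 CPM over the group. A ceiling of 3 counts, taken here as what an observed 0 allows, comes to 0.0668 CPM over the 3 knockdown libraries and covers counting error only. Igf2, in comparison, had 177, 337 and 449 counts in the same control libraries. The gene (ENSMUSG00000000031) lies from 142575529 to 142578143 on the minus strand of chromosome 7.

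The remaining genes were not detectable at this depth or nearly so. Meg3, a maternally expressed long RNA (ENSMUSG00000021268, chromosome 12 from 109541001 to 109571726), had 2 counts, both in knockdown replicate 2. Dlk1, a membrane protein of fetal tissues from the same domain (109452823 to 109463336), had 0 counts in all 6 libraries. So did Cdkn1c, an inhibitor of cyclin-dependent kinases that limits growth (chromosome 7, 143458350 to 143461050). Peg3, a paternally expressed zinc finger protein (chromosome 7, 6703892 to 6730421), and Plagl1, a zinc finger transcription factor (chromosome 10, 13060504 to 13131694), had 0 as well. For each of these 4, the same ceiling of 3 counts per group comes to 0.0701 CPM in the controls and 0.0668 CPM in the knockdown.

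Most neighbours in the imprinted domains of these genes also had few or no counts. In the distal chromosome 7 region that holds H19, Igf2, Kcnq1ot1 and Cdkn1c, 10 further imprinted genes were listed, of which Ins2 and Tspan32 had no count. Ascl2, Phlda2, Slc22a18 and Kcnq1 had at most 5 counts in any library, so Kcnq1 itself was seen only as 5 counts in control replicate 2 although the antisense Kcnq1ot1 was measured throughout. The 4 tested genes there are Cd81, Tssc4, Nap1l4 and Osbpl5. Cd81, a tetraspanin, had means of 242.8 ± 38.2 and 309 ± 2.67 CPM (log2 fold change 0.35, edgeR adjusted p = 0.096). Tssc4 had a log2 fold change of -0.53 (edgeR adjusted p = 0.0873), Osbpl5 0.32 (0.155) and Nap1l4, a histone chaperone, 0.06 (0.655). None of the 4 passed with all libraries, where 20.6% of all genes were called. With control replicate 1 left out Cd81 and Osbpl5 were called higher and Tssc4 lower, where 52.1% of all genes were called.

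**Figure D3:**
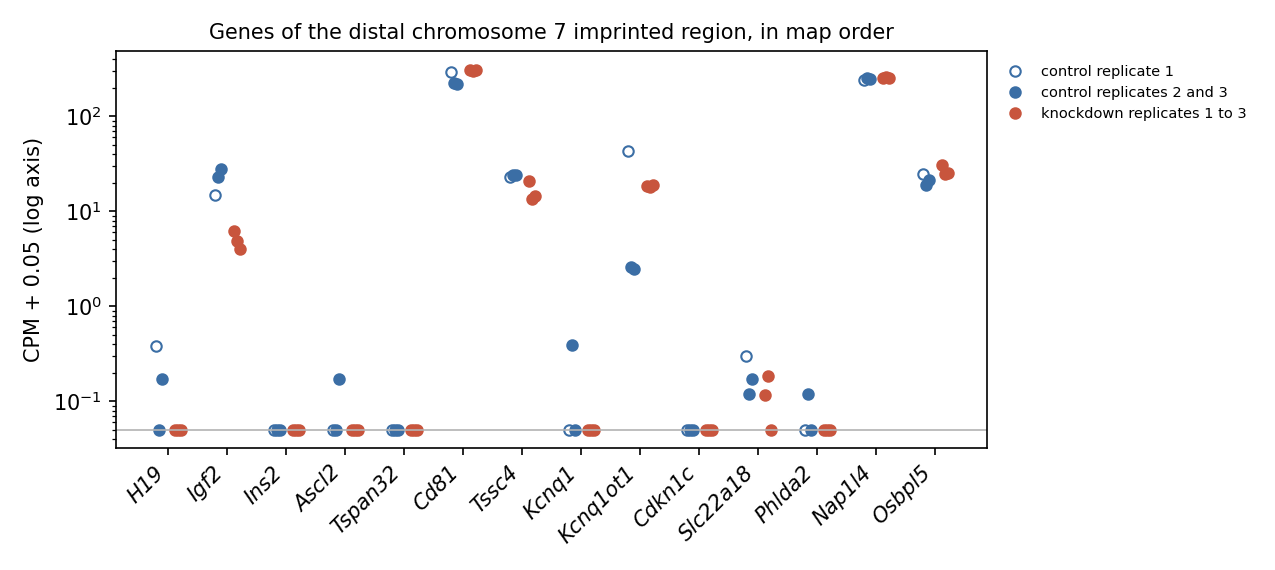
CPM plus 0.05 on a log axis for the listed imprinted genes of distal chromosome 7 in map order, 1 point per library. Most genes lie at or near the level of 0 counts, and Igf2, Kcnq1ot1, Cd81, Tssc4, Nap1l4 and Osbpl5 lie above it in all 6 libraries.

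Airn, the antisense RNA that silences paternal Igf2r in mouse tissues, was at 4.36, 1.23 and 1.97 CPM across the controls and at 1.12, 1.26 and 1.57 CPM in the knockdown. The groups overlap, and control replicate 1 is highest (log2 fold change -0.90, edgeR adjusted p = 0.235). Per 100 Igf2r counts there were 75.4, 8.87 and 16.8 Airn counts in the controls and 5.8, 5.44 and 6.93 in the knockdown, so the groups did not overlap (two-sided exact permutation p = 0.1, the smallest possible). Igf2r alone already separated the groups and Airn alone did not, so this ratio is no separate support. Control replicate 1, high in Airn and low in Igf2r, had the highest ratio, and without it the controls were 2.03-fold above the knockdown. Slc22a2 and Slc22a3, transporter genes that Airn silences in mouse placenta, had no count. Rtl1, Mirg and Dio3 of the Dlk1-Meg3 domain and Usp29 and Zim1 of the Peg3 domain had none either, and Rian had 1, 1 and 2 counts in the controls only. Zfp264 and Peg3os of the Peg3 domain were not analysed here. Beside Grb10, Ddc was at 16.2 ± 2.67 and 18.1 ± 0.615 CPM and Cobl at 4.86 ± 1.8 and 7.67 ± 1.48 CPM, with edgeR adjusted p of 0.489 and 0.19. Within 500 kb of Igf2 edgeR called 1 of 6 tested neighbours, Ctsd, and within 500 kb of Igf2r 1 of 9, Acat2. Around H19 it called 2 of 8, Ctsd and Igf2 itself, around Kcnq1ot1 0 of 11 and around Grb10 0 of 3. Of all genes tested, 20.6% were called. Ctsd and Acat2 both fell, and both are named after their values were seen.

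Across 59 other imprinted genes, 22 could be tested, and edgeR called 3 of them lower and 0 higher, a share of 13.6% against 20.6% of all genes. At an unadjusted p below 0.05 there were 4 higher and 4 lower, and DESeq2 called 2 higher and 3 lower. H13, a signal peptide peptidase, fell from 367.2 ± 22.8 to 239.1 ± 14.8 CPM (log2 fold change -0.62, edgeR adjusted p = 0.00885). Ppp1r9a, an actin-binding protein, fell from 21.5 ± 7.34 to 11.2 ± 0.915 CPM (-0.93, edgeR adjusted p = 0.0393), and Impact, a regulator of translation, from 62.2 ± 19.1 to 35.9 ± 2.2 CPM (-0.79, edgeR adjusted p = 0.0419). The most abundant were Dcn (2177 ± 159 and 2727 ± 56.6 CPM, edgeR adjusted p = 0.0968) and Gnas, a G protein subunit (553 ± 11.8 and 549 ± 22.9 CPM, edgeR adjusted p = 0.949). The median log2 fold change of the 22 was 0.1, against -0.03 for all genes. With control replicate 1 left out the calls were 6 higher and 5 lower (50%, against 52.1%). The higher were Cd81, Osbpl5, Mcts2, Commd1, Dcn and Ampd3, and the lower had Tssc4 and Trappc9 beside the 3 above. Without control replicate 2 or 3 or knockdown replicate 1 there were 2 calls. Without knockdown replicate 2 or 3 there were 0, with 3 and 4 at an unadjusted p below 0.05. The share of all genes called in these fits was 12.5% and 10.4% without control replicates 2 and 3, and 5.93%, 4.91% and 4.37% without knockdown replicates 1 to 3.

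Of 29 genes listed around IGF action, not all of them partners of Igf2, 20 could be tested. Of these, edgeR called 2 higher and 3 lower. That share of 25% is near the 20.6% of all genes, and the median log2 fold change was 0.01, against -0.03. The ligand Igf1 had no count and the receptor Igf1r at most 2 counts in any library, while Insr, the insulin receptor, which also binds IGF2, had 98.3 ± 20.3 and 118.7 ± 1.18 CPM (edgeR adjusted p = 0.266). Ghr, the growth hormone receptor, fell from 12.3 ± 3.23 to 5.79 ± 0.808 CPM (log2 fold change -1.09, edgeR adjusted p = 0.0201). Insrr, an orphan relative of the insulin receptor, fell from 19.1 ± 7.12 to 9.58 ± 0.697 CPM (-0.99, edgeR adjusted p = 0.0412).

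Of 8 listed binding proteins of the IGFs in serum and tissue, 4 could be tested. Igfbp1, a liver binding protein, fell from 955 ± 112 to 706 ± 13.2 CPM (log2 fold change -0.44, edgeR adjusted p = 0.0437). Igfbp6, which prefers IGF2 over IGF1, rose from 2.22 ± 0.376 to 3.85 ± 0.166 CPM (0.78, edgeR adjusted p = 0.0475). Igfbp4, the most abundant, had 1456 ± 142 and 1622 ± 42 CPM and Igfbp3 930.5 ± 42.2 and 824.9 ± 8.11 CPM, with edgeR adjusted p of 0.391 and 0.237. Among the 3 proteins that bind Igf2 mRNA, Igf2bp1 rose from 176.4 ± 12 to 220 ± 5.74 CPM (0.32, edgeR adjusted p = 0.0488), and Igf2bp2 and Igf2bp3 did not pass (0.07 and 0.15). Counts of calls varied with the library left out. Without control replicate 1 there were 4 higher (Gab1 and M6pr beside the 2 above) and 7 lower (Ghr, Insrr, Igfbp1, Igfbp3, Stc1, Irs2 and Ide). Without control replicate 2 there were 2 and without control replicate 3 there was 1. Without any 1 knockdown replicate there were 0, with 5 to 7 at an unadjusted p below 0.05. Of all genes, 52.1%, 12.5%, 10.4% and then 4.37% to 5.93% were called in the same fits.

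**Figure D4:**
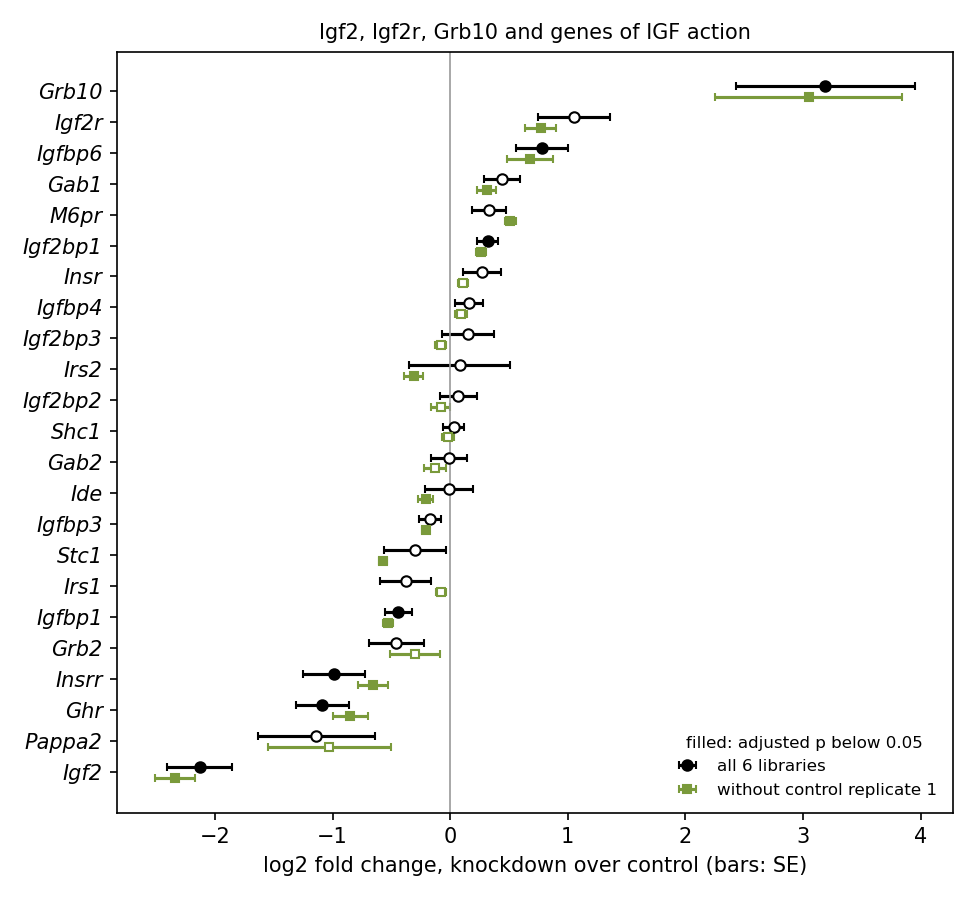
Log2 fold change of knockdown over control with its SE for Igf2, Igf2r, Grb10 and the tested genes of IGF action, with all 6 libraries and without control replicate 1 (filled points: adjusted p below 0.05). Igf2 lies lowest at -2.13 and Grb10 highest at 3.19 with all libraries.

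Paralogs of the 10 genes, which share sequence and often function with them, could be tested for 7 of 9 listed. Plagl2, a relative of Plagl1, rose from 36.3 ± 1.08 to 50 ± 0.974 CPM (log2 fold change 0.46, edgeR adjusted p = 0.0145), the only call among 7 tested paralogs (14.3%, against 20.6% of all genes). It passed in 2 of 6 fits with a library left out. Cdkn1a, a kinase inhibitor related to Cdkn1c, had 321.7 ± 48.1 and 373.2 ± 3.13 CPM, and M6pr, the other mannose 6-phosphate receptor, 139.3 ± 28 and 175.6 ± 5.97 CPM, with edgeR adjusted p of 0.274 and 0.155. Per 100 M6pr counts there were 3.33, 11.2 and 9.6 Igf2r counts in the controls and 11.3, 13.3 and 12.6 in the knockdown, and the groups did not overlap (two-sided exact permutation p = 0.1, the smallest possible). The knockdown was 1.74-fold above the controls, but only 1.2-fold without control replicate 1. Igf2r alone already separated the groups, so this ratio is no separate support.

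Few factors that keep or read imprints passed with all libraries. Of 26 listed, 23 were tested, and edgeR called 1 lower and 0 higher (4.35%, against 20.6% of all genes), with 3 higher and 4 lower at an unadjusted p below 0.05 and with DESeq2 2 lower and 0 higher. Eed, a core subunit of the Polycomb complex that methylates histone H3, fell from 57.8 ± 0.183 to 45.6 ± 0.657 CPM (log2 fold change -0.34, edgeR adjusted p = 0.0302). Rad21, a cohesin subunit, had 693 ± 225 and 834.3 ± 12.9 CPM, and Trim28, the corepressor that protects imprints, 393.8 ± 35.2 and 316.9 ± 9.52 CPM, with edgeR adjusted p of 0.478 and 0.0689. Zfp57, the zinc finger protein that recruits Trim28 to imprints, had 132.6, 56.1 and 51.9 CPM in the controls and 54.8, 50 and 47.6 CPM in the knockdown, highest again in control replicate 1. The calls without control replicate 1 were 4 higher (Ctcf, Ehmt1, Ezh1 and Hells) and 7 lower (Trim28, Eed, Smchd1, Arid4a, Arid4b, Smc1a and Smc3). That share was 47.8%, against 52.1% of all genes. With any other single library left out there were 0, with 1 to 4 at an unadjusted p below 0.05, where 4.37% to 12.5% of all genes were called.

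Among other genes of fetal liver and growth, the shifts did not run one way. Of 16 listed, 11 were tested, 1 rose and 4 fell (45.5%, against 20.6% of all genes), with a median log2 fold change of -0.24, against -0.03. Without control replicate 1 the sign of the median changed, to 0.3, against 0.01 for all genes. Afp, the fetal serum protein made by liver and hepatoma, had 741.7, 936.9 and 931.8 CPM in the controls and 1775, 1960 and 1901 CPM in the knockdown. It rose by 1.12 on the log2 scale with an SE of 0.138 and an edgeR adjusted p of 0.0048, and passed in 6 of 6 fits with a library left out. Epcam, a surface protein of hepatic progenitors, had 15, 23 and 22.3 CPM in the controls and 5.84, 7.16 and 7.59 CPM in the knockdown, a fall by 1.54 on the log2 scale that also passed in 6 of 6 (edgeR adjusted p = 0.00643). Afp and Igf2, both products of fetal liver, thus differed in direction.

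Tead2, a transcription factor of the Hippo pathway, fell from 79 ± 0.931 to 49.2 ± 4.95 CPM (log2 fold change -0.68, edgeR adjusted p = 0.00757). Hmga1, a chromatin protein of growing cells, fell from 371.1 ± 36.7 to 271.4 ± 12.2 CPM (-0.45, edgeR adjusted p = 0.029). Sox4, a transcription factor, fell from 232.4 ± 18 to 168.1 ± 0.531 CPM (-0.47, edgeR adjusted p = 0.0161), with 54.6% of its exonic sequence overlapped by a gene on the opposite strand. With a library left out, Tead2 passed in 4 of 6 fits, Sox4 in 3 and Hmga1 in 1. The list without control replicate 1 gave 6 higher and 5 lower of 12 (91.7%, against 52.1% of all genes). The higher were Afp, Gpc3, Lin28b, Hmga2, Krt19 and Trim71, and the lower had Sox12 added. Of these, Gpc3, Lin28b and Krt19 had at most 24 counts in any library. Without either knockdown replicate 2 or 3 the list gave 2 calls, where 4.91% and 4.37% of all genes were called.

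The genes with the highest Pearson r to these genes over the 6 libraries were found among 10173 genes of at least 2 CPM. The r was taken on log2 CPM after adding 1. It is a description with no test and does not compare the size of changes. Kcnq1ot1 was closest to Rps7 (Pearson r = 0.9995), Rpp14 (0.999) and Dnajc9 (0.9988), and 35 genes reached 0.99. Rps7 had 273.3, 150.8 and 148.1 CPM in the controls and 221.7, 221.1 and 225.8 CPM in the knockdown. Igf2r was closest to Lbr (0.9991), Crim1 (0.9986) and Mtpn (0.9986), and Igf2 to Paf1 (0.9984), Smpd2 (0.9983) and Tmem184b (0.9982). All of these share the libraries and their depth, and 54 and 53 genes reached 0.99 with Igf2r and Igf2.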

How the data were processed

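The authors deposited read counts per gene, whole numbers with no normalization, and FPKM values for the same 34718 genes, per the file headers. The build mm10, featureCounts 1.5.0-p3 and HISAT2 2.0.5 appear in the submitters' processing notes. Their roles, the annotation, the strand setting and any filters were not given in the sources used here. Without a known strand setting, counts of genes that overlap on opposite strands may be mixed. The deposited FPKM values imply gene lengths with a median of 1.25 times the merged exons of GENCODE M21, so levels between genes were set per kb of merged exons from the counts, and FPKM was used for this check only. GENCODE M21 held 98.8% of the gene identifiers. All sample columns were used.

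The test was that of edgeR 4.0.16 under R 4.3.3: filterByExpr on the groups (11975 genes kept, 12108 without control replicate 1), TMM scaling, a quasi-likelihood fit with the group as its only term and two-sided p-values adjusted by Benjamini-Hochberg over all genes tested. The threshold was 0.05. The SE is the log2 fold change divided by the square root of F. Means ± SD are TMM-scaled CPM, and values per library are plain CPM. No 2 replicates agreed within counting noise. Alternatives were RLE and upper-quartile scaling, 2 other filters, DESeq2 1.42.0, removal of mitochondrially encoded genes, a replicate block and leaving out each library. The procedure was tested on simulated data.

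The 10 genes and all lists were chosen with earlier results of these data known. Named are the 10 genes, every passing gene and the 2 most abundant of the lists of other imprinted genes, IGF action, paralogs, imprint factors and fetal liver genes, all listed genes of the imprinted domains, Zfp207, nuclear long RNAs beside the results they move with and the 3 genes of most similar pattern. Other genes are named as markers or beside a result.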

Additional observations from a re-analysis of the deposited data

How the results depend on the processing

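Igf2 kept its direction and its call in all 13 alternatives. Igf2r kept its direction in all 13 and passed in 4 of them: DESeq2, mitochondrially encoded genes removed (edgeR adjusted p = 0.0497), and without control replicate 1 or 2. Grb10 kept its direction in 12 and lost its call in 5; it was not tested with the filter of at least 1 CPM in 3 libraries, so only 1 of the 10 genes was then called, against 2. With each library left out that number ran from 1 to 4. Kcnq1ot1 ran from -0.27 to 2.92 with a library left out. It reversed without control replicate 2 (-0.26) and without control replicate 3 (-0.27) and stood at 0.15 to 0.28 under the other scalings, filters and DESeq2, which gave it no adjusted p. The cause was not tested. Of the other imprinted genes 3 were called, with DESeq2 5, and 0 to 11 with a library left out. Of the genes of IGF action 5 were called, 3 with RLE scaling, 3 with upper-quartile scaling, 2 with no filter beyond 1 count, and 0 to 11 with a library left out. Of the imprint factors 1 was called, 4 with upper-quartile scaling, 2 with DESeq2, 0 with no filter beyond 1 count (6 at an unadjusted p below 0.05) and 0 to 11 with a library left out. Of all genes tested, 20.6% were called, 27% with DESeq2, 20.5% with RLE scaling and 21.6% with upper-quartile scaling. The share was 11% with no filter beyond 1 count and 4.37% to 52.1% with a library left out. Upper-quartile scaling moved the median of all genes to -0.09 and the split of calls to 1011 higher and 1573 lower, from 1188 and 1278. H19 and Meg3 entered a fit only with no filter beyond 1 count, where neither was called.

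Control and knockdown libraries share only a replicate number: same-numbered libraries deviated from their group means with correlations of -0.008, 0.00771 and 0.0527, and not every library correlated best with its own number. With the replicate block, 987 genes were called against 2466, 1 of the 10 (Igf2, -2.09, edgeR adjusted p = 0.0365), 1 other imprinted gene, 1 gene of IGF action and 0 imprint factors (6 at an unadjusted p below 0.05). Igf2r stood at 1.13 (edgeR adjusted p = 0.0516), Grb10 at 3.19 (0.0906) and Kcnq1ot1 at 1.49 (0.363).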
